A study of Mus musculus with 12 samples.

Results

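The 9 genes described here encode carriers that move sulfate, dicarboxylates such as citrate, lactate and related monocarboxylates, and glucose across tubule cells of the kidney: Slc13a1, Slc26a1, Slc13a2, Slc13a3, Slc5a8, Slc5a12, Slc5a1, Slc5a2 and Slc2a2. They were chosen by name, with earlier results of these data known, and every probe set annotated to them was taken. This gave 17 of the 45037 probe sets tested and 9 of the 18193 genes with a probe set of their own. Counts of carriers beside the share of all genes therefore describe this group and are no independent support for a trait of it. Whole kidneys were profiled on Affymetrix Mouse Genome 430 2.0 arrays, with 12 arrays in 4 groups of 3, each from a separate mouse. The groups were AGTR1A-KO mice (KO), which lack the AT1A angiotensin receptor, given angiotensin II (ANG II) for 2 days at 1 ug/kg/min, KO mice at baseline, wild-type (WT) mice given the same infusion, and WT mice at baseline. All were male F1 (C57BL6 X 129/SvEv) mice of 2.5 months on the diet the labels call NS. The labels describe the deletion as carried by the animal and name no promoter or cell type, so a kidney response cannot be told apart from a response to changes elsewhere in the body.

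Most filtered solute is taken back in the proximal tubule, whose successive segments are called S1, S2 and S3. Carriers of the SLC13 and SLC5 families use the sodium gradient to bring solute into the cell, most of them from the tubule fluid and Slc13a3 from the blood side. Slc26a1 and Slc2a2 let solute out to the blood side. Glucose is taken up mainly by Slc5a2 (SGLT2) in the early segments, and the remainder by Slc5a1 (SGLT1) further along. Angiotensin II acts on this epithelium through AT1 receptors, and Agtr1a encodes the main one in the mouse kidney.

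Each value below is a ratio, in which 1 stands for the median of that probe set on the 12 arrays, and levels of different genes cannot be compared. Each gene is represented by the probe set of the plainest name, and the others are given where they add or disagree. Changes are log2 differences of group means with the moderated standard error of limma, n = 3 per group, and adjusted p-values are Benjamini-Hochberg values over all probe sets of a comparison. A change was called at an adjusted p under 0.05. In whole kidney, fewer cells of a type and less RNA per cell cannot be told apart.

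In WT kidneys 6 of the 9 carriers changed with ANG II, against 24.1% of all genes. Slc13a1 rose, and Slc26a1, Slc5a8, Slc5a2, Slc5a1 and Slc2a2 fell. In KO kidneys 1 of the 9 changed, near the 10.0% of all genes called, and it was Slc5a2, which rose. At an unadjusted p under 0.05 limma gave 4 of the 9 in KO and 7 of the 9 in WT. The response differed between the genotypes for 6 of the 9 carriers, against 10.2% of all genes, and these were the 6 that changed in WT. The median carrier had a log2 change of 0.03 in KO, where the median gene had 0.06, and of -0.43 in WT, where the median gene had 0.03.

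Upstream sequence is shown for the falling carriers whose RefSeq window ends where the gene begins, since these carriers moved in the same direction in WT. The windows are the 250 bases before the start, in assembly GRCm38.p6, at chr10:88885742-88885991 on the plus strand for Slc5a8, chr5:33103969-33104218 on the plus strand for Slc5a1 and chr3:28697653-28697902 on the plus strand for Slc2a2. Capitals mark AGAACA, the short motif of steroid hormone receptors, or CACGTG, an E-box, on either strand.
Slc5a8: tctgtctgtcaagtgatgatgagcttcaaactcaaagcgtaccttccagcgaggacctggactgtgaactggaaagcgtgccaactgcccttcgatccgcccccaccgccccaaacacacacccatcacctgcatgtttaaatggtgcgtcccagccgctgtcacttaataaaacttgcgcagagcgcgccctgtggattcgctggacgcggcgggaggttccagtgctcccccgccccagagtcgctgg
Slc5a1: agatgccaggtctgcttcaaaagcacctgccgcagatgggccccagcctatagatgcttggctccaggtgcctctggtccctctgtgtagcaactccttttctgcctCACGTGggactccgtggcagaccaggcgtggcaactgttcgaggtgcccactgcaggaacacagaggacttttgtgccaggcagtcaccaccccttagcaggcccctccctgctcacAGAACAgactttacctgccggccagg
Slc2a2: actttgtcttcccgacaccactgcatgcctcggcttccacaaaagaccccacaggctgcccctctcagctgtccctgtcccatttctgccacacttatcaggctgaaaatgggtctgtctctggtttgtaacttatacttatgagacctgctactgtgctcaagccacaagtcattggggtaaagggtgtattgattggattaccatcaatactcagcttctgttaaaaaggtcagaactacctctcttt
The Slc5a1 window holds CACGTG 143 bases and AGAACA 26 bases before the start, and the Slc5a8 and Slc2a2 windows hold neither. Both Slc26a1 windows lie inside the interval annotated as that gene and are not shown. Of these, 1 holds AGAACA 115 bases and CACGTG 47 bases before its start. Over the 7 windows found for 6 of the 9 carriers, 2 held AGAACA and 3 held CACGTG, where 16.1% and 6.02% of all 32851 windows did. Those with AGAACA belong to Slc26a1 and Slc5a1. Those with CACGTG belong to the same genes and to Slc13a3, whose representative probe set was not called in WT. No window was found for Slc5a2, which fell, or for Slc13a1 and Slc5a12. A further pair of motifs was searched on both strands: AGGTCA, a nuclear receptor motif, in 1 carrier window (Slc2a2, 21 bases before the start) and 14% of all windows, and GTTAAT, an HNF1 motif, in 0 of the 7 and 6.43% of all. A match is a string of letters and not a shown site.

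**Figure D1:**
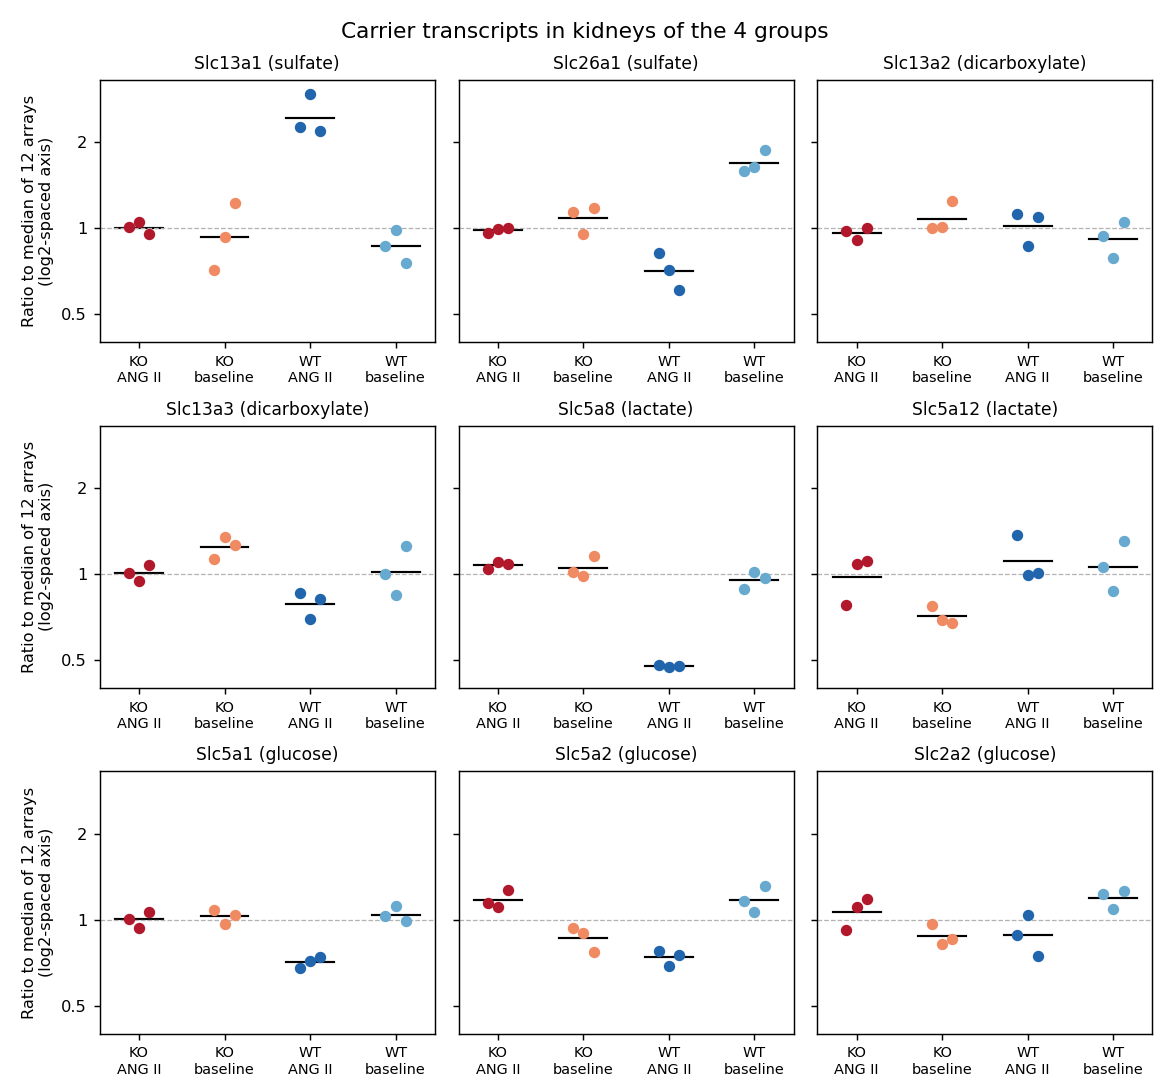
Ratio to the median of the 12 arrays (log axis) for the representative probe set of each of the 9 carriers, 1 point per array, with the groups KO ANG II, KO baseline, WT ANG II and WT baseline from left to right and a bar at each group mean. The WT ANG II arrays stand at 2.18 to 2.93 for Slc13a1 and at 0.472 to 0.482 for Slc5a8, apart from the other 9 arrays of each gene.

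Sulfate enters the proximal tubule cell through Slc13a1 (NaS1), the sodium-sulfate cotransporter of the brush border. Its ratios were 1.01, 1.05 and 0.958 in the KO ANG II kidneys and 0.715, 0.931 and 1.23 in the KO baseline kidneys. In WT they were 2.25, 2.93 and 2.18 under ANG II, against 0.866, 0.989 and 0.756 at baseline. All 3 WT ANG II kidneys thus lay above the other 9 arrays, while the KO groups overlapped. Slc13a1 changed by a log2 of 0.10 ± 0.17 in KO (adjusted p = 0.721) and rose by 1.49 ± 0.17 in WT, or 2.81-fold (adjusted p = 8.78e-05), the 18th highest change of the 18193 genes. The KO response was lower than the WT response by a log2 change of -1.39 ± 0.24 (adjusted p = 0.00308).

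The other Slc13a1 probe set gave a smaller difference. Its ratios were 0.836, 0.991 and 1.08 in KO ANG II, 0.867, 0.857 and 0.726 in KO baseline, 1.51, 1.37 and 1.33 in WT ANG II and 1.01, 0.912 and 1.06 in WT baseline kidneys. It rose in WT by a log2 of 0.50 ± 0.11 (adjusted p = 0.00603), and its response did not pass the test for a difference between genotypes (-0.26 ± 0.15, adjusted p = 0.343). With the mean of both probe sets the WT rise was 1.00 and the difference -0.82.

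Slc26a1 (Sat1), the sulfate exchanger of the blood-side membrane, moved the other way in WT kidneys. Its ratios were 0.963, 0.995 and 1.01 in the KO ANG II kidneys and 1.14, 0.952 and 1.18 in the KO baseline kidneys. In WT they were 0.818, 0.717 and 0.609 under ANG II, against 1.58, 1.64 and 1.87 at baseline. The WT baseline arrays were the highest of the 12 and the WT ANG II arrays the lowest, with all 6 KO arrays between them. Slc26a1 changed by -0.13 ± 0.11 in KO (adjusted p = 0.472) and fell in WT by a log2 change of -1.25 ± 0.11 (adjusted p = 1.84e-05), which is 2.38-fold lower and the 45th lowest change of all genes. The responses differed by 1.12 ± 0.16 (adjusted p = 0.000985).

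A further probe set of Slc26a1, of the class whose probes can match other transcripts (_x_at), fell in both genotypes, by a log2 change of -0.62 ± 0.13 in KO (adjusted p = 0.00976) and -1.54 ± 0.13 in WT (adjusted p = 1.12e-05), and its responses also differed (0.92 ± 0.19, adjusted p = 0.00786). The Slc26a1 gene overlaps Idua, a lysosomal enzyme gene, in the annotation. Set against each other within an array, the log2 ratio of Slc13a1 less that of Slc26a1 lay between -0.069 and 0.075 in KO ANG II, between -0.67 and 0.065 in KO baseline, between 1.46 and 2.03 in WT ANG II and between -1.31 and -0.73 in WT baseline kidneys. On the representative probe sets the entry and exit carriers of sulfate thus moved apart in WT by 2.75 ± 0.19, and by 0.24 ± 0.19 in KO (standard error, with a 95% interval of -0.18 to 0.65). The other probe sets of Slc13a1 and Slc26a1 changed by 0.24 ± 0.11 and -0.62 ± 0.13 in KO, and by 0.50 ± 0.11 and -1.54 ± 0.13 in WT. The small KO value therefore depends on the choice of probe set.

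The dicarboxylate carriers changed less. Slc13a2 (NaDC1), the brush border carrier that reclaims citrate and succinate, had ratios of 0.981, 0.908 and 1.00 in KO ANG II and 1.00, 1.01 and 1.24 in KO baseline kidneys. In WT it had 1.13, 0.869 and 1.09 under ANG II, against 0.936, 0.790 and 1.05 at baseline. The groups overlapped within each genotype. The log2 change was -0.16 ± 0.13 in KO (adjusted p = 0.424) and 0.15 ± 0.13 in WT (adjusted p = 0.388), with a 95% interval in WT of -0.12 to 0.43.

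Slc13a3 (NaDC3), its high-affinity relative on the blood side, is measured by 4 probe sets that disagreed. On the representative probe set the ratios were 1.00, 0.949 and 1.08 in KO ANG II, 1.13, 1.34 and 1.26 in KO baseline, 0.856, 0.698 and 0.819 in WT ANG II and 0.996, 0.844 and 1.25 in WT baseline kidneys. The KO ANG II arrays lay below KO baseline without overlap, while the WT groups overlapped between 0.844 and 0.856. The log2 changes of -0.30 ± 0.13 in KO (adjusted p = 0.155) and -0.37 ± 0.13 in WT (adjusted p = 0.0539) did not pass the test. The WT change passed it when WT ANG II replicate 1 (adjusted p = 0.0457) or WT baseline replicate 2 (adjusted p = 0.0188) was left out, and under 3 other settings.

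Of the remaining Slc13a3 probe sets, the further plain _at rose in WT (0.39 ± 0.09, adjusted p = 0.007) with ratios of 1.28, 1.37 and 1.19 under ANG II, against 0.986, 0.996 and 0.945 at baseline. By contrast an _x_at probe set fell in WT (-0.33 ± 0.10, adjusted p = 0.0346), with 0.833, 0.791 and 0.833 under ANG II, against 1.00, 0.918 and 1.17 at baseline. The last, also an _x_at, changed by 0.14 ± 0.11 (adjusted p = 0.363). No direction can therefore be given for the gene, and the transcripts each probe set reads were not analysed here.

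The lactate carriers parted. Slc5a8 (SMCT1) is the high-affinity sodium-coupled carrier of lactate, pyruvate and short-chain fatty acids, best known from the later proximal segments. Its ratios were 1.04, 1.10 and 1.08 in the KO ANG II kidneys and 1.01, 0.987 and 1.16 in the KO baseline kidneys, while in WT they were 0.482, 0.472 and 0.476 under ANG II, against 0.885, 1.02 and 0.965 at baseline. The WT ANG II arrays differed among themselves by 0.01 and lay below all others. Slc5a8 changed by 0.03 ± 0.08 in KO (adjusted p = 0.835) and fell in WT by a log2 change of -1.002 ± 0.08, 2.00-fold lower (adjusted p = 1.04e-05). The responses differed by 1.03 ± 0.12 (adjusted p = 0.000187). Normalizing the arrays by quantiles again gave a WT change of -0.62 and a difference of 0.66, both still called.

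Slc5a12 (SMCT2), the low-affinity counterpart of the early segments, had ratios of 0.778, 1.08 and 1.11 in KO ANG II and 0.772, 0.693 and 0.675 in KO baseline kidneys. In WT it had 1.37, 0.994 and 1.01 under ANG II, against 1.06, 0.869 and 1.30 at baseline. The WT groups overlapped and the KO groups did not. The log2 change was 0.46 ± 0.17 in KO (adjusted p = 0.097) and 0.06 ± 0.17 in WT (adjusted p = 0.801), and the other probe set gave 0.25 ± 0.15 (adjusted p = 0.293) and -0.17 ± 0.15 (adjusted p = 0.411). Leaving out KO ANG II replicate 1 brought the KO change to 0.62 with an adjusted p of 0.033.

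All 3 glucose carriers fell in WT kidneys. Slc5a2, the bulk glucose carrier of the brush border, had ratios of 1.15, 1.11 and 1.27 in the KO ANG II kidneys and 0.938, 0.897 and 0.772 in the KO baseline kidneys. In WT it had 0.775, 0.689 and 0.756 under ANG II, against 1.16, 1.06 and 1.31 at baseline. The groups did not overlap in either genotype, and they lay in opposite order. Slc5a2 rose in KO by a log2 change of 0.44 ± 0.10 (adjusted p = 0.0176) and fell in WT by -0.67 ± 0.10 (adjusted p = 0.000704). The difference of the responses was 1.10 ± 0.15 (adjusted p = 0.000516), and its other probe set, of the class that can read several transcripts (_s_at), gave 0.43, -0.70 and 1.13 for these changes, all called. The Slc5a2 gene overlaps Rusf1 in the annotation. The KO rise lost its call without KO ANG II replicate 3 (adjusted p = 0.0802) or without KO baseline replicate 3 (adjusted p = 0.0716).

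Slc5a1 had ratios of 1.01, 0.939 and 1.07 in KO ANG II kidneys and 1.09, 0.966 and 1.04 in KO baseline kidneys. In WT the values were 0.680, 0.717 and 0.743 under ANG II, against 1.03, 1.11 and 0.991 at baseline, and only there did the groups separate. The log2 change was -0.04 ± 0.08 in KO (adjusted p = 0.811) and -0.55 ± 0.08 in WT (adjusted p = 0.000699), a difference of 0.51 ± 0.12 (adjusted p = 0.0164). The other probe set fell further in WT, by a log2 change of -0.95 ± 0.13 (adjusted p = 0.000257). On the representative probe set the difference lost its call without KO ANG II replicate 3 (adjusted p = 0.0504) and after quantile normalization again (0.36, adjusted p = 0.149).

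Slc2a2 (GLUT2), the facilitative carrier through which glucose leaves the cell on the blood side, had ratios of 0.918, 1.11 and 1.18 in KO ANG II and 0.964, 0.823 and 0.859 in KO baseline kidneys. In WT it had 0.888, 1.04 and 0.747 under ANG II, against 1.23, 1.09 and 1.26 at baseline. The log2 change was 0.27 ± 0.13 in KO (adjusted p = 0.177) and -0.43 ± 0.13 in WT (adjusted p = 0.0244), and the responses differed by 0.71 ± 0.18 (adjusted p = 0.0238). The WT arrays lay apart and the KO arrays overlapped. The WT fall lost its call with array weights (adjusted p = 0.0666) and without WT ANG II replicate 3 (adjusted p = 0.103), WT baseline replicate 1 (0.0829) or WT baseline replicate 3 (0.0711). The difference lost its call without WT baseline replicate 1 (0.0556) or 3 (0.0594), KO ANG II replicate 3 (0.0663) or KO baseline replicate 2 (0.0586).

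**Figure D2:**
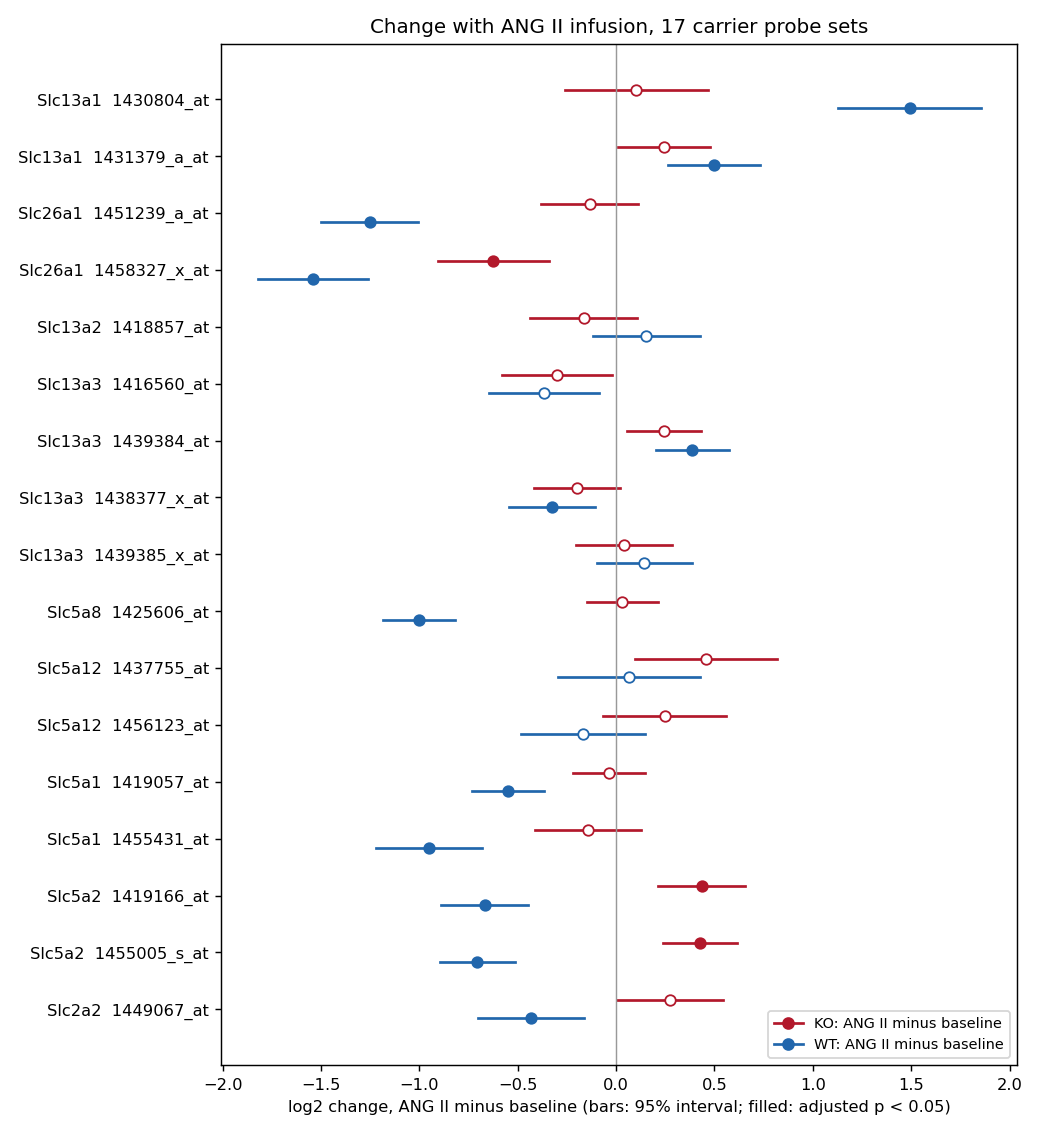
Log2 change with ANG II (ANG II minus baseline) for all 17 carrier probe sets, with 95% intervals, KO above WT in each pair, and filled points where the adjusted p is under 0.05. In WT 12 of the 17 are filled, 3 to the right of 0 and 9 to the left, and in KO 3 are filled.

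Over all 17 probe sets, 3 were called in the KO response, against 9.91% of all probe sets, and 12 in the WT response, against 24.1%. The KO calls were both Slc5a2 probe sets, which rose, and the _x_at probe set of Slc26a1, which fell. Within glucose uptake, the log2 ratio of Slc5a1 less that of Slc5a2 changed by -0.47 ± 0.12 in KO and 0.12 ± 0.12 in WT, a difference of -0.59 with a 95% interval of -0.95 to -0.23. On these representative probe sets the 95% interval of that change in WT was -0.14 to 0.37. A difference between the falls of Slc5a1 and Slc5a2 was thus not detectable there, while in KO they moved apart. The other probe sets of Slc5a1 and Slc5a2 changed by -0.14 ± 0.13 and 0.43 ± 0.09 in KO. In WT they changed by -0.95 ± 0.13 and -0.70 ± 0.09, and a difference between these falls was not tested.

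**Figure D3:**
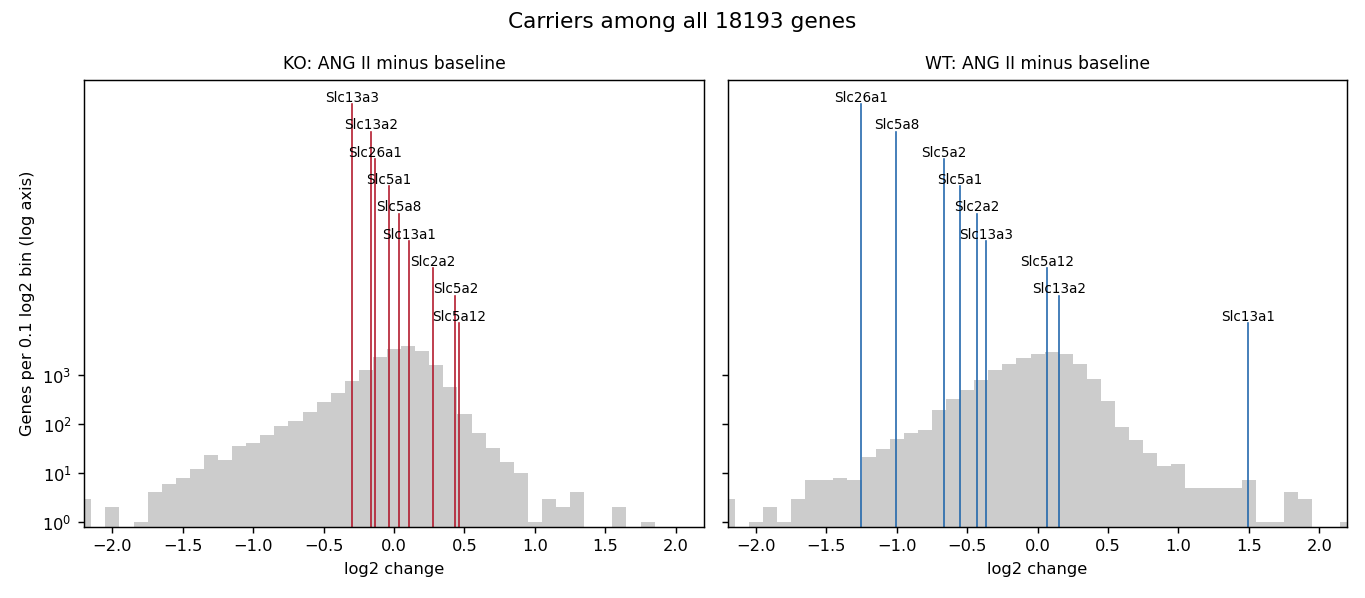
Log2 change with ANG II of all 18193 genes (grey, genes per bin of 0.1 on a log axis) with the 9 carriers marked as labelled lines whose height carries no value, KO left and WT right; genes beyond the axis limits are not drawn. In WT Slc13a1 stands at 1.49 and Slc26a1 and Slc5a8 at -1.25 and -1.002, while in KO all 9 lie between -0.30 and 0.46.

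The genotypes were also compared directly. These comparisons share their arrays with the responses above, so the values stand side by side and are no independent support. At baseline 2 of the 9 carriers differed, both lower in KO, against 6.56% of all genes called in either direction. They were Slc26a1 (-0.64 ± 0.11, adjusted p = 0.00541) and Slc5a2 (-0.44 ± 0.10, adjusted p = 0.0225). Quantile normalization again gave -1.09 for Slc26a1 (adjusted p = 0.00117). Slc5a12 (-0.57 ± 0.17, adjusted p = 0.0575) and Slc2a2 (-0.44 ± 0.13, adjusted p = 0.0545) did not pass the test, and their KO and WT arrays did not overlap. In all, 4 carriers had KO baseline arrays wholly below WT baseline, where 18.9% of all genes did. The other Slc5a12 probe set was called (-0.78 ± 0.15, adjusted p = 0.00699). The Slc5a2 call was lost without WT baseline replicate 1 (adjusted p = 0.0505) or 3 (0.111), or KO baseline replicate 2 (0.0586) or 3 (0.0839), and leaving out WT baseline replicate 2 added Slc5a12 (0.0411).

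Under ANG II, 5 of the 9 carriers differed between the genotypes, against 21.6% of all genes. Slc5a8 (1.17 ± 0.08, adjusted p = 1.78e-06), Slc5a2 (0.66 ± 0.10, adjusted p = 0.000721), Slc5a1 (0.49 ± 0.08, adjusted p = 0.00145) and Slc26a1 (0.48 ± 0.11, adjusted p = 0.0114) were higher in KO. Slc13a1 was lower in KO (-1.28 ± 0.17, adjusted p = 0.00023). Slc2a2, whose responses differed, was not called under ANG II (0.27 ± 0.13, adjusted p = 0.141), and its KO and WT arrays overlapped. The Slc26a1 difference lost its call after quantile normalization again (0.32, adjusted p = 0.179), and the _x_at probe set of Slc26a1 was not called (0.36 ± 0.13, adjusted p = 0.0687). For Slc13a3 the further plain _at probe set was called lower in KO (-0.27 ± 0.09, adjusted p = 0.0443). The representative Slc13a3 probe set was not called (0.36 ± 0.13, adjusted p = 0.067).

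**Figure D4:**
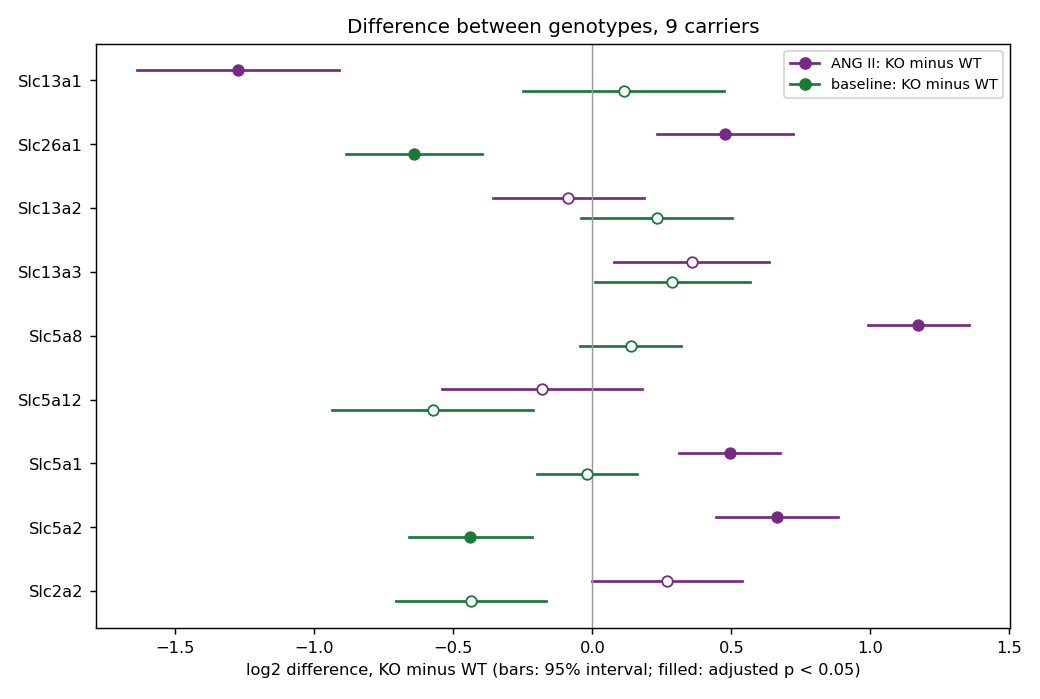
Log2 difference between genotypes (KO minus WT) for the representative probe set of each of the 9 carriers, under ANG II and at baseline. Bars are 95% intervals, and points are filled where the adjusted p is under 0.05. For Slc26a1 and Slc5a2 the representative probe sets lie at 0.48 and 0.66 under ANG II, and at -0.64 and -0.44 at baseline.

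Related carriers of the same families were read from lists of genes that leave out the 9. Of 9 other SLC5 carriers, 5 rose and 1 fell in KO, against 10.0% of all genes called in that comparison, and 0 were called in WT (2 at an unadjusted p under 0.05, limma). The risers in KO included Slc5a9, a sodium-coupled mannose carrier (0.66 ± 0.13, adjusted p = 0.00649), Slc5a11, a sodium-coupled inositol carrier (0.65 ± 0.09, adjusted p = 0.000632), and Slc5a6, a vitamin carrier (0.50 ± 0.12, adjusted p = 0.0196). The WT values were -0.11 ± 0.13, -0.22 ± 0.09 and -0.17 ± 0.12 in the same order, and the responses of all 3 differed between genotypes, with adjusted p-values of 0.0176, 0.000902 and 0.0243.

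The lists that follow are read against the 10.0% of all genes called in KO and the 24.1% called in WT. Of 10 other SLC13 and SLC26 carriers 0 were called in KO and 1 in WT, below the share of all genes. At an unadjusted p under 0.05 limma gave 1 of the 10 in KO and 5 in WT. The carrier called in WT was Slc26a6, an anion exchanger that handles oxalate and chloride. It changed by 0.28 ± 0.12 in KO (adjusted p = 0.136) and fell in WT (-0.68 ± 0.12, adjusted p = 0.00142). Among 10 other SLC2 hexose carriers 1 rose and 2 fell in WT, near the share of all genes, and 0 were called in KO (2 at an unadjusted p under 0.05, limma). The largest of these was Slc2a13, a proton-coupled inositol carrier (-0.67 ± 0.16, adjusted p = 0.00937). The fructose carrier Slc2a5 changed by -0.29 ± 0.09 (adjusted p = 0.0385), and Slc2a8 by 0.27 ± 0.09 (adjusted p = 0.043). Of 15 SLC16 monocarboxylate genes, 1 rose and 4 fell in WT, while 1 rose and 2 fell in KO, or 5 of 15 and 3 of 15 beside those shares. Slc16a14 (-0.83 ± 0.22 in KO, adjusted p = 0.0308, and -1.01 ± 0.22 in WT, adjusted p = 0.006) fell and Slc16a6 (0.89 ± 0.23 in KO, adjusted p = 0.0289, and 0.95 ± 0.23 in WT, adjusted p = 0.0116) rose in both genotypes. Slc16a12, a creatine carrier, fell in WT (-0.72 ± 0.12, adjusted p = 0.00122), and its KO change was -0.06 ± 0.12.

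Enzymes that handle the transported solutes were read in the same way. Of 16 genes of sulfate activation and transfer 4 rose and 8 fell in WT, and 2 rose and 3 fell in KO, against 24.1% and 10.0% of all genes called. Sult1a1, a phenol sulfotransferase, fell in KO (-0.59 ± 0.13, adjusted p = 0.0117) and rose in WT (0.78 ± 0.13, adjusted p = 0.00106). Tst, a mitochondrial sulfurtransferase, rose in WT (0.69 ± 0.13, adjusted p = 0.00224), and Bpnt2, a phosphatase that clears a by-product of sulfate transfer, fell in KO (-0.55 ± 0.09, adjusted p = 0.00237) and in WT (-0.68 ± 0.09, adjusted p = 0.00025). Of 18 genes of citrate and dicarboxylate metabolism 1 rose and 7 fell in WT and 0 were called in KO. Those that fell included the cytosolic NADP enzymes Idh1 (-0.66 ± 0.10, adjusted p = 0.000549) and Me1 (-0.61 ± 0.08, adjusted p = 0.000156) and the cytosolic aconitase Aco1 (-0.49 ± 0.09, adjusted p = 0.00205). Of 15 genes of lactate, pyruvate and glucose metabolism 1 rose and 2 fell in WT and 0 were called in KO. G6pc, the last enzyme of glucose production, rose in WT (0.88 ± 0.12, adjusted p = 0.000282), while Ldha, a lactate dehydrogenase subunit (-0.48 ± 0.09, adjusted p = 0.00201), and Khk, which phosphorylates fructose (-0.43 ± 0.09, adjusted p = 0.00351), fell. At an unadjusted p under 0.05 limma gave 5 of the 18 and 2 of the 15 in KO.

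For each carrier called in WT the 3 other genes nearest to it in log2 ratio over the 12 arrays were found by the root mean square difference. For Slc5a1 they were Chek2 at 0.063, Sec61b at 0.075 and Chchd1 at 0.078, where Slc5a1 itself varied about its median by 0.26. Slc2a2 was nearest to Qprt (0.083), Dnajc18 (0.10) and Lhx1os (0.11), against its own 0.23, and Slc5a2 to Prkd3 (0.092), Dera (0.098) and Lpar3 (0.12), against 0.31. Slc5a8 was nearest to Tmem237 (0.10), Chst7 (0.12) and Bend5 (0.12), against its own 0.54. The nearest to Slc26a1, which itself varied by 0.47, were Haspin (0.20), Nxt2 (0.22) and Tmlhe (0.22). Those to Slc13a1, which varied by 0.68, were Hacl1 (0.33), AA388235 (0.34) and Kyat3 (0.35).

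Markers of the proximal segments, markers of other cells and RNA measures moved with these groups. Their part in the carrier results was not tested. Counts of markers called stand beside 10.0% of all genes in the KO response, 24.1% in the WT response, 6.56% between genotypes at baseline and 21.6% between them under ANG II, and counts such as 1 of 4 or 2 of 8 in WT are near that share. Of 11 S3 markers other than Slc5a1, 7 fell and 0 rose in WT, and their mean log2 ratio lay between 0.051 and 0.15 in KO ANG II, 0.027 and 0.20 in KO baseline, -1.28 and -0.80 in WT ANG II and -0.15 and 0.10 in WT baseline kidneys. Under ANG II 8 of the 11 were higher in KO than in WT. Of 8 S1 markers other than the carriers, 2 rose and 1 fell in WT, and 4 were lower and 0 higher in KO at baseline. Of 17 markers shared by all proximal segments 2 rose and 6 fell in WT. Of 11 tubular injury markers 6 fell in KO, 6 rose in WT and 7 were higher in KO at baseline. Their mean log2 ratio lay between -0.16 and 0.059 in KO ANG II, 0.47 and 0.84 in KO baseline, 0.17 and 0.27 in WT ANG II and -0.50 and -0.35 in WT baseline kidneys. Of 9 macrophage markers 7 fell in KO, 3 fell in WT, 8 were higher in KO at baseline and 6 under ANG II, with a mean of -0.11 to 0.35 in KO ANG II, 0.88 to 1.47 in KO baseline, -0.81 to -0.34 in WT ANG II and -0.44 to 0.021 in WT baseline kidneys.

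Among the other cell types, 4 of 8 smooth muscle and mesangial markers and 3 of 6 podocyte markers were higher in KO at baseline. Of 9 endothelial markers 1 rose and 4 fell in KO, and 1 rose and 4 fell in WT, but the genes differed, with Tek alone falling in both and Kdr rising with ANG II in KO (0.35) and falling in WT (-0.33). These 2 genes were named after their values were seen. Podocyte markers fell for 3 of 6 in KO and 1 in WT, smooth muscle and mesangial markers for 2 of 8 in KO and 1 in WT, and principal cell markers for 2 of 8 in each genotype. Distal convoluted tubule markers rose for 2 of 4 in KO and fell for 1 in WT. Intercalated cell markers were called for 0 of 7 in KO and rose for 2 in WT. Thick ascending limb markers were called for 0 of 7 in KO, and 1 fell in WT. Blood cell markers rose for 2 of 6 in KO and 1 in WT, adipocyte markers for 0 of 5 in KO and 1 in WT, and adrenal cortex markers for 1 of 6 in KO and 0 in WT. At an unadjusted p under 0.05 limma gave 1 intercalated, 0 thick limb and 1 adipocyte marker in KO and 2 adrenal markers in WT.

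The log2 difference of 3' and 5' control probes of Actb and Gapdh, a sign of RNA integrity, was taken from the same ratios. It therefore compares the arrays with each other and gives no absolute integrity. It lay between 0.00023 and 0.011 in KO ANG II, -0.04 and 0.00042 in KO baseline, 0.036 and 0.067 in WT ANG II and -0.018 and -0.0074 in WT baseline kidneys. The SD of log2 ratios over all probe sets was also highest in WT ANG II arrays, at 0.27 to 0.34. The probe set of Agtr1a, which gave 0.917 to 1.05 in KO ANG II, 0.923 to 1.04 in KO baseline, 0.957 to 1.00 in WT ANG II and 1.36 to 1.397 in WT baseline kidneys, was at baseline lower in KO (-0.49 ± 0.08, adjusted p = 0.00306) and did not separate the genotypes under ANG II (-0.00 ± 0.08, adjusted p = 0.98). Its position relative to the deletion was not analysed here, and ratios give no level by which to check the tissue against its markers.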

How the data were processed

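Total RNA of snap-frozen kidneys was hybridised to 12 arrays, 1 per mouse. Values were made with RMA, per the submitters' processing notes. The deposited values are on a linear scale, each a ratio in which 1 stands for the median of the probe set on the 12 arrays. That division was read from the values, with 45099 of 45101 medians within 0.002 of 1, and is not stated in the sources used here. Ratios hold no signal over background, and 3 arrays per group limit the precision.

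The log2 of each ratio was taken, 64 control probe sets were left out, and a mean for each of 4 groups was fitted with limma 3.58.1 in R 4.3.3, with no variance trend, 8 residual and 5.83 prior degrees of freedom. The 5 comparisons were tested two-sided. Of the probe sets 34945 carried 1 symbol, 932 several and 9160 none. A gene's representative probe set was a plain _at before _a_at, _s_at and _x_at, then the lowest number. The procedure was tested on simulated data.

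Named were all carriers, up to 3 called genes of each of 8 pathway lists with the largest change in WT (otherwise in KO), the 3 nearest genes of each carrier called in WT, and Agtr1a. The remaining risers of the SLC5 list are counted only. Markers came from 15 lists. Carriers and lists were chosen with earlier results of these data known. Alternatives were a variance trend, only the groups compared, quantile normalization again, centring, array weights, the replicate number as a block, a filter on the upper 50% by SD, probe sets averaged per gene, 0.1 added before log2, and each array left out in turn. Replicate numbers were not taken to pair the samples. The deviations of same-numbered samples from different groups correlated at -0.16 to 0.22 over 18 pairs, 7 of them above 0.1. Those of other-numbered samples correlated at -0.29 to 0.24 over 36 pairs, 7 of them above 0.1. With 3 arrays per group these values cannot decide whether the numbers mark a pairing. Upstream sequences are from RefSeq, GRCm38.p6.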

Additional observations from a re-analysis of the deposited data

Results flagged for a closer look

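The ANG II response differed between the genotypes, by the interaction term of the limma fit, for 6 of the 9 carriers, against 10.2% of all genes. As KO response minus WT response, the log2 difference was -1.39 for Slc13a1, whose KO and WT changes were 0.10 and 1.49. The other Slc13a1 probe set was not called (-0.26, adjusted p = 0.343), and the mean of both gave -0.82. The difference was 1.12 for Slc26a1 (-0.13 in KO, -1.25 in WT) and 1.03 for Slc5a8 (0.03 in KO, -1.002 in WT). Among the glucose carriers it was 1.10 for Slc5a2 (0.44 in KO, -0.67 in WT), 0.71 for Slc2a2 (0.27 in KO, -0.43 in WT) and 0.51 for Slc5a1 (-0.04 in KO, -0.55 in WT). Under 20 alternatives the Slc2a2 call was lost in 4 and the Slc5a1 call in 2.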

How the results depend on the processing

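Of 715 carrier values recomputed under the alternatives, 679 kept their side of the threshold, 17 lost the call, 19 gained it and 0 turned round where called. The 679 include values that changed sign while not called, such as Slc5a12 in WT (0.06 as reported, -0.09 to 0.21 under the alternatives). The number of carriers called in the KO response was 2 with probe sets averaged per gene, against 1 as reported, with Slc26a1 added (-0.38, adjusted p = 0.0424). At baseline KO and WT differed for 4 carriers, against 2 as reported, with only the groups compared, quantile normalization again, array weights, the filter on SD or probe sets averaged per gene. Slc5a12 and Slc2a2 were the carriers added. Leaving out each array in turn gave 5 to 7 carriers in the WT response, 0 to 2 in the KO response, 4 to 6 for the difference of the responses, 1 to 3 at baseline and 5 in every case under ANG II.

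With the replicate number as a block, 7 carriers were called in the WT response (Slc13a3 added, adjusted p = 0.0411), 1 in the KO response, 6 for the difference, 2 at baseline and 5 under ANG II. The numbers were not taken to pair the samples, so the block is given only here. A fit to only the groups compared is the reported fit for the difference of the responses, which uses all 4 groups. The cause of these changes was not tested.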

Other observations

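A list of 15 regulators and scaffolds of proximal transport had 1 gene that rose and 4 that fell in KO, where 10.0% of all genes were called, and 4 that rose and 4 that fell in WT, where 24.1% were called, by limma with Benjamini-Hochberg adjustment. Sgk1, a kinase induced by mineralocorticoid and glucocorticoid receptors that is known to raise sodium-coupled carriers at the membrane, fell in KO (-0.86 ± 0.11, adjusted p = 0.000398) and rose in WT (0.87 ± 0.11, adjusted p = 0.000163). Hnf4g, a nuclear receptor of the proximal tubule, did the reverse, with a rise in KO (0.52 ± 0.11, adjusted p = 0.0123) and a fall in WT (-0.51 ± 0.11, adjusted p = 0.00662). Ppara, a nuclear receptor of fatty acid oxidation, changed by -0.14 ± 0.14 in KO (adjusted p = 0.553) and rose in WT (0.63 ± 0.14, adjusted p = 0.00743).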
